A study of Macaca mulatta with 27 samples.

Results

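The imprinted genes described here are the annotated members of a list of 36 genes reported as imprinted in human or mouse. Of these, 27 had at least 1 probe set on the rhesus array that names a single gene, out of 14132 such genes on the array. The other 9 (PEG10, SNURF, MEG3, CDKN1C, ZIM2, ZIM3, GNAS, NAP1L5 and NNAT) were not analysed here. A gene with several probe sets is represented by the one with the highest mean signal, here called the brightest, and its other probe sets are given where they differ. The study profiled total RNA from 10 embryonic stem cell (ESC) lines of rhesus macaque on 27 Affymetrix arrays, to see how alike newly made lines of known parentage are. Each line was started from a blastocyst's inner cell mass on mouse embryonic fibroblast feeders, in serum replacer with bFGF, activin A and hLIF, and RNA came from scraped colonies. The labels name no transgene and no treatment.

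Sire M106 and dam F244 gave the fraternal triplet lines 106 (male), 206 (female) and 306 (male). Sire M106 and dam F88 gave the fraternal quadruplet lines 2706 (male), 2906 (female), 3006 (female) and 3106 (male). Line 2406 (female) is from M106 and F77, line 3806 (female) from M106 and F32, and line 906 (male) from sire M36 and dam F183. Line 2906 has 1 array, line 206 has 2, and each of the other lines has 3. Nothing in the labels says that the arrays of 1 line are separate cultures. A p-value among lines therefore weighs lines against the spread of these arrays alone, and that spread may be technical.

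Imprinted genes are expressed mainly from the copy inherited from one parent, because DNA methylation set in the egg or sperm at an imprinting control region differs between the copies. They lie in clusters that share such a region, and many act on growth of the fetus and placenta. In ESC lines they are followed because imprints can be lost in culture, which changes how many copies of a gene are active. These arrays measured total RNA of each gene and did not separate the parental copies.

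Of the 27 genes, 9 were called present on all 27 arrays. These were IGF2R, the receptor that takes IGF2 to the lysosome, MEST, a protein with a hydrolase fold, and SNRPN, a spliceosomal protein. They also included NDN and MAGEL2, a pair of MAGE family proteins, and UBE3A, a ubiquitin ligase. GRB10, an adaptor that inhibits insulin receptor signalling, SGCE, a sarcoglycan, and BLCAP, a small protein linked to apoptosis, completed that group. Another 10 genes were present on 14 to 26 arrays. PHLDA2 was present on 26 arrays, PEG3, PPP1R9A, DIRAS3 and INPP5F on 25 each, H19 on 24, DLK1 on 21, TSSC4 on 19, OSBPL5 on 18 and PLAGL1 on 15. KCNQ1, a potassium channel gene, was present on 2 arrays and COPG2, a coatomer subunit gene, on 1. The brightest probe sets of IGF2, MKRN3, ATP10A, L3MBTL1, WT1 and CPA4 were present on 0 arrays. A second probe set of ATP10A was present on 9. An absent call means that the probe set was not reliably told apart from its mismatch probes, and does not show that the gene was silent.

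**Figure D1:**
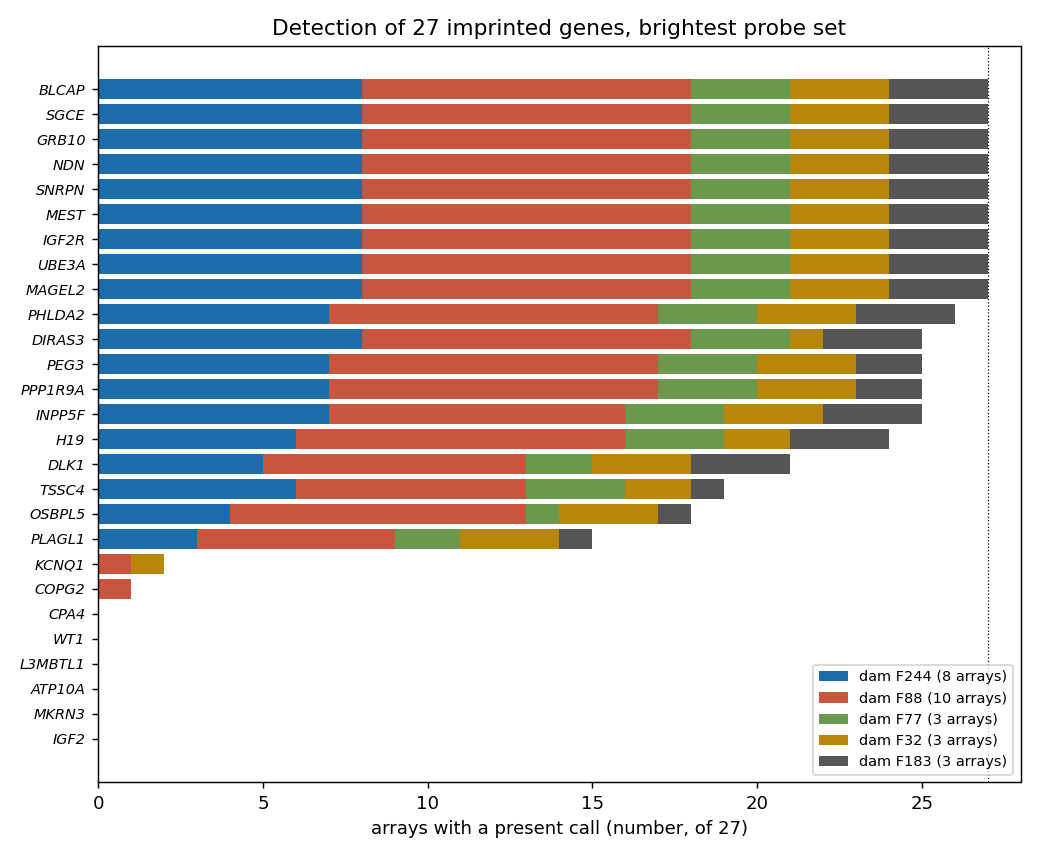
Number of arrays, of 27, with a present call for the brightest probe set of each of 27 imprinted genes, coloured by the dam of the line. The 9 genes present on all arrays fill every colour, and 6 genes have no bar because they were present on 0 arrays.

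Detection varied by array. The number of imprinted genes called present ranged from 11 on array c of line 106 to 20 on array b of line 3806. Among the genes not present everywhere, OSBPL5, a lipid transfer protein, was present on 9 of 10 arrays of the lines of dam F88. It was present on 4 of 8 arrays of dam F244, 3 of 3 of F32, 1 of 3 of F77 and 1 of 3 of F183. DLK1, a transmembrane protein related to Notch ligands, was present on 5 of 8 arrays of dam F244 and 8 of 10 of dam F88. H19, a long non-coding RNA, was present on 6 of 8 arrays of dam F244 and 10 of 10 of dam F88. PLAGL1, a zinc finger transcription factor, was present on 3 of 8 arrays of dam F244, 6 of 10 of F88 and 3 of 3 of F32. DIRAS3 was present on 1 of 3 arrays of dam F32 and on all arrays of the other dams. The arrays of dam F244 include array c of line 106, which had the fewest present calls. By sire, DLK1 was present on 18 of 24 arrays of M106 and 3 of 3 of M36. OSBPL5 was present on 17 of 24 arrays of M106 and 1 of 3 of M36, and TSSC4 on 18 of 24 and 1 of 3. These shares were not tested, since arrays of a line share their source.

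Between 38.2% and 46.9% of all probe sets were called present per array. On 6 of the 27 arrays GAPDH had a signal at the 3′ end more than 3 times that at the 5′ end, a sign of RNA broken or copied short. The ratio was 13.3 on the single array of line 2906, 6.15 and 3.41 on arrays a and c of line 3006, 4.61 on array c of line 106, and 3.18 and 3.04 on arrays d and e of line 2406. Arrays c of lines 106, 206, 306 and 906 had the highest median signals, up to 159.7 against a lowest median of 94.1 on array a of line 3106. Of 7 markers of pluripotent cells, 5 were present on every array. Of 8 trophoblast markers, CDX2 and KRT7 were present on 0 arrays, and the summed signal of the 8 was 4697.7 in line 2906 against line means of 1836 to 2831 in the others. The summed signal of 8 fibroblast and feeder cell markers was lowest in line 2906, at 10834, against line means of 14286 to 28546 in the others. Within lines 106, 206, 306 and 906 this sum was highest on array c, at 28510.6 to 45315.5.

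Levels are given below as log2(signal + 16), so a difference of 1 is about 2 times the signal for a bright gene and more for a dim one. Of the 24 imprinted genes bright enough to be tested, 6 differed among the 10 lines by limma's F test at a Benjamini-Hochberg adjusted p under 0.05. The 6 were PHLDA2, PEG3, NDN, SGCE, BLCAP and COPG2. They are 25% of those tested, while 17.5% of all 11306 genes tested were called by the same rule. Among the 18 tested genes that were present on at least 14 arrays, 5 were called, or 27.8%, against 19.8% of all 8771 genes tested with that many present calls. The median range of line means was 1.01 over the 24 imprinted genes and 0.86 over all genes tested. The median share of variance between lines was 28.6% and 25.3%. Leaving out the 6 arrays with that ratio above 3, and so line 2906, left 2 of the 24 called (PEG3 and PHLDA2), or 8.33%. Over all probe sets tested the share called was 7.96% with those arrays left out and 16.6% with them.

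**Figure D2:**
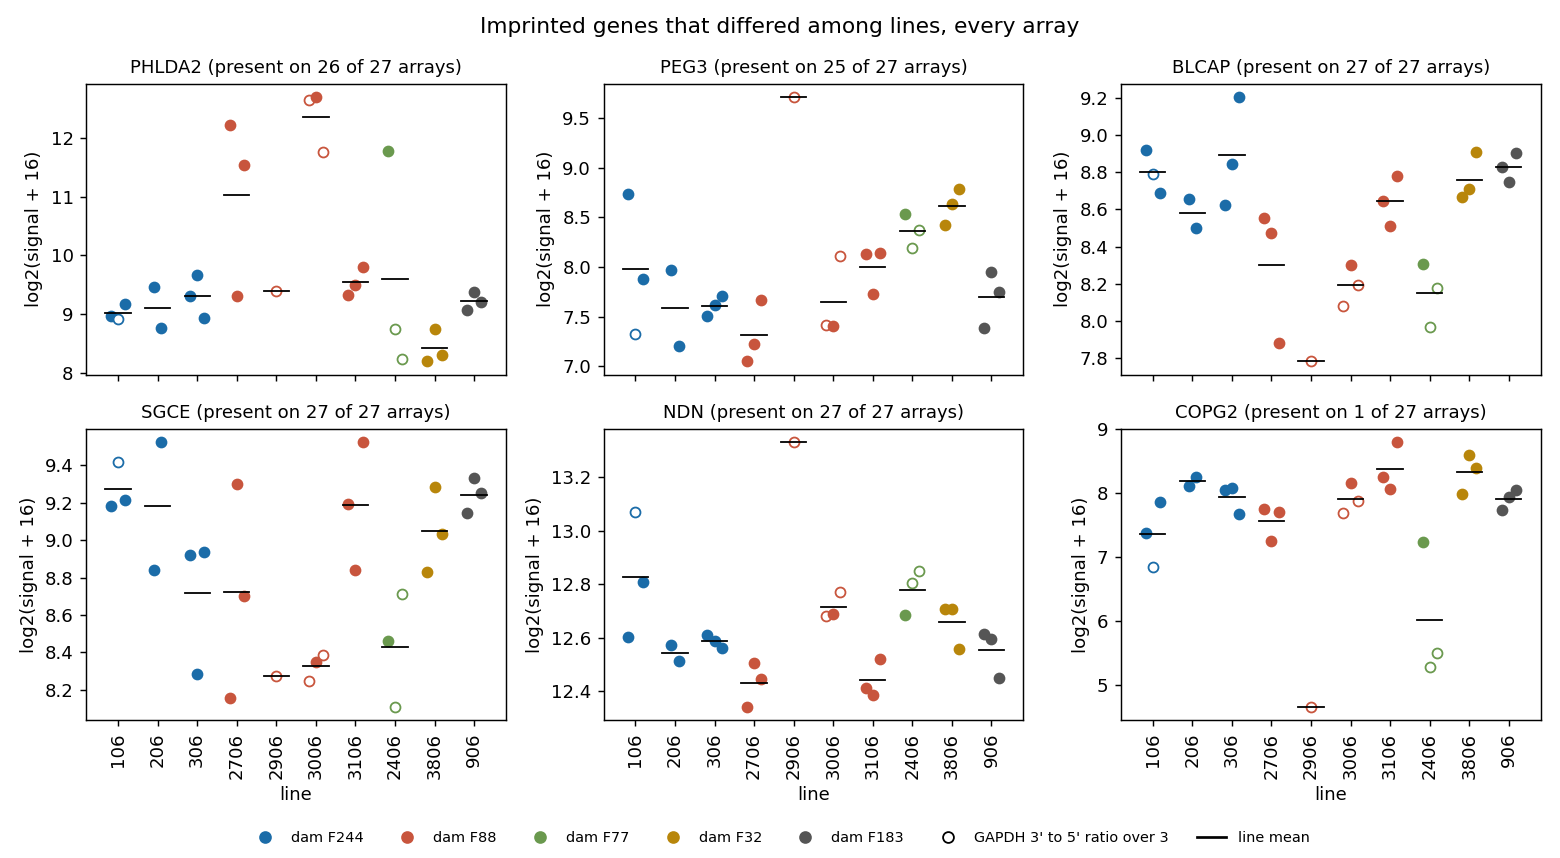
Level on every array, as log2(signal + 16), of the 6 imprinted genes called among lines, by line and coloured by dam, with a bar at each line mean and open points where GAPDH was over 3 times as bright at its 3′ end. PHLDA2 was above 11.5 on 6 arrays and below 9.9 on the other 21, while NDN and PEG3 were highest on the single array of line 2906.

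PHLDA2 had the widest range of the imprinted genes, 3.94. It is a small protein with a pleckstrin homology domain, expressed from the maternal copy, that restrains growth of the placenta in mice. Its signal on the 3 arrays of line 3006 was 6355, 6612 and 3430. On arrays a, b and c of line 2706 it was 4761, 620 and 2944, and on arrays a, d and e of line 2406 it was 3499, 416 and 289. The other 18 arrays were lower, from 278 in line 3806 to 879 in line 3106. On the log2 scale, line 3006 had a mean of 12.36 ± 0.53 (SD, n = 3), line 2706 11.02 ± 1.52 (n = 3) and line 2406 9.59 ± 1.91 (n = 3). The remaining 7 lines lay between 8.42 and 9.55. In bulk RNA such as this, more cells that express a gene and more RNA per cell cannot be told apart. The arrays thus fell into 6 at 11.53 to 12.69 and 21 at 8.20 to 9.81, and lines 2706 and 2406 had arrays on both sides. The adjusted p of the F test was 0.00763, and it was 0.265 without line 3006, where the range fell from 3.94 to 2.60.

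The 6 arrays of high PHLDA2 came from a male line (2706) and from female lines (3006 and 2406), all of sire M106 and of dams F88 and F77. Lines 3006 and 2706 share both parents with lines 2906 and 3106, whose PHLDA2 levels were 9.39 and 9.55 ± 0.24 (n = 3). The summed signal of the trophoblast markers, a lineage in which PHLDA2 is known to be abundant, was 2277 in line 3006 and 1991 in line 2706, within the line means of 1836 to 2831 outside line 2906. In line 2706 it was 1894, 2027 and 2051 on arrays a, b and c, of which array b was low for PHLDA2. In line 2406 it was 2232, 1861 and 1415 on arrays a, d and e, of which array a was high for PHLDA2. Of the 8 markers in the sum only TFAP2C was present on every array. The part of trophoblast cells in the PHLDA2 levels was not tested. The GAPDH ratio was 1.89, 1.92 and 1.91 on the 3 arrays of line 2706, and 1.52 on array a of line 2406 against 3.18 and 3.04 on its other two. With the 6 arrays of high ratio left out, the range of PHLDA2 was 4.27, with an adjusted p of 0.00681.

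The neighbours of PHLDA2 in the KCNQ1 cluster were not called among lines by their brightest probe sets. OSBPL5 ranged from 7.93 in line 206 to 8.96 in line 2906 (adjusted p = 0.30), with 8.87 ± 0.33 (n = 3) in line 3006. A second OSBPL5 probe set, present on 2 arrays, was called (adjusted p = 0.0192) and was also highest in line 2906, at 8.91, and lowest in line 906, at 7.20. TSSC4 ranged from 8.85 in line 2706 to 9.43 in line 2906 (adjusted p = 0.476). KCNQ1 ranged from 7.18 to 8.11 (adjusted p = 0.796), with present calls on 2 arrays.

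Among the genes of the IGF2 system, no brightest probe set was called among lines. H19 means ran from 9.42 in line 2406 to 10.35 ± 0.82 (n = 3) in line 906 (adjusted p = 0.257). The 3 arrays of line 906 gave 9.73, 11.28 and 10.05, and the highest of them, array c, was the highest of all 27 by 0.78. That array is one of the 4 with the highest median signal. The other H19 probe sets were present on 6 and 0 arrays. IGF2, the growth factor encoded next to H19, was absent on all arrays, with line means of 6.82 to 8.47. IGF2R had the narrowest range of the 18 tested genes present on at least 14 arrays, 0.50, from 11.00 in line 3006 to 11.50 in line 206 (adjusted p = 0.14). Its second probe set ranged from 8.88 in line 3006 to 10.06 in line 2906 (adjusted p = 0.268).

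PEG3, a zinc finger protein expressed from the paternal copy, had the second widest range among genes present on at least 14 arrays, 2.40 (adjusted p = 0.00524). The single array of line 2906 was at 9.71. Line 3806 followed with arrays at 8.42, 8.63 and 8.79, and line 2406 with 8.53, 8.19 and 8.37. Line 2706 was lowest, with 7.05, 7.22 and 7.67. No array of line 3806 or 2406 fell within the values of line 2706. PEG3 was still called without line 2906, with a range of 1.30 and an adjusted p of 0.0453. Its second probe set was likewise highest in line 2906 (7.59) and lowest in line 2706 (6.45), but the F test did not call it (adjusted p = 0.39).

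DLK1, also paternally expressed, ranged by 2.20 but was not called (adjusted p = 0.0964). Line 2906 was at 10.73, line 906 at 10.18 ± 0.91 (n = 3) and line 3806 at 9.88 ± 0.11 (n = 3), and line 206 was lowest at 8.53 ± 1.24 (n = 2). Single arrays moved these means. Array c of line 906 was at 11.23 against 9.72 and 9.59 on the other two, and it is the same array that was highest for H19. The summed signal of fibroblast and feeder cell markers was 28510.6 on that array and 15581.9 and 15522.5 on arrays a and d. The part of such cells in these levels was not tested. In line 2406, arrays a and d were at 9.41 and 9.90 and array e at 7.49, with an absent call. DIRAS3, a Ras-related GTPase that restrains cell growth, was highest in line 906 at 7.99 ± 0.29 (n = 3), with arrays at 7.66, 8.11 and 8.19. The other lines lay between 6.63 and 7.50, and the F test gave an adjusted p of 0.083. PLAGL1 was too dim to be tested, with line means from 5.42 in line 3006 to 6.77 in line 3806.

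The genes of the Prader-Willi and Angelman cluster were led by 4 that were present on every array and had ranges of at most 0.99. SNRPN ranged from 14.11 in line 2706 to 15.11 in line 2906 (adjusted p = 0.212). NDN ranged from 12.43 in line 2706 to 13.33 in line 2906, and the other 9 lines lay within 0.39 of each other. MAGEL2 ranged from 9.39 in line 3806 to 10.38 in line 2906 (adjusted p = 0.174), and UBE3A from 12.44 in line 3806 to 13.18 in line 2906 (adjusted p = 0.15). All 4 genes had their highest line mean in line 2906. Its single array was also the highest of the 27 for SNRPN, NDN and MAGEL2, while for UBE3A array a of line 3006 was higher, at 13.30. The F test called NDN (adjusted p = 0.0345), but without line 2906 its adjusted p was 0.226. MKRN3 was absent on all arrays, with line means of 5.60 to 6.45, and ATP10A, a phospholipid-transporting ATPase, had line means of 4.83 to 6.86.

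Other probe sets of the same genes gave the opposite order for line 2906. The second SNRPN probe set, present on all 27 arrays, was lowest there, at 11.74, while line 906 was highest at 13.42. It was called among lines (adjusted p = 0.0342), although the brightest SNRPN probe set was not. Both other NDN probe sets, also present on all arrays, were lowest in line 2906, at 11.63 and 9.74, with adjusted p of 0.584 and 0.0657. Of the 6 UBE3A probe sets 0 were called by limma at an adjusted p under 0.05, and 2 of them were highest and 2 lowest in line 2906. Where a probe set lies along its transcript was not analysed here. The single array of line 2906 had the GAPDH ratio of 13.3, and the part of RNA length in these differences was not tested.

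**Figure D3:**
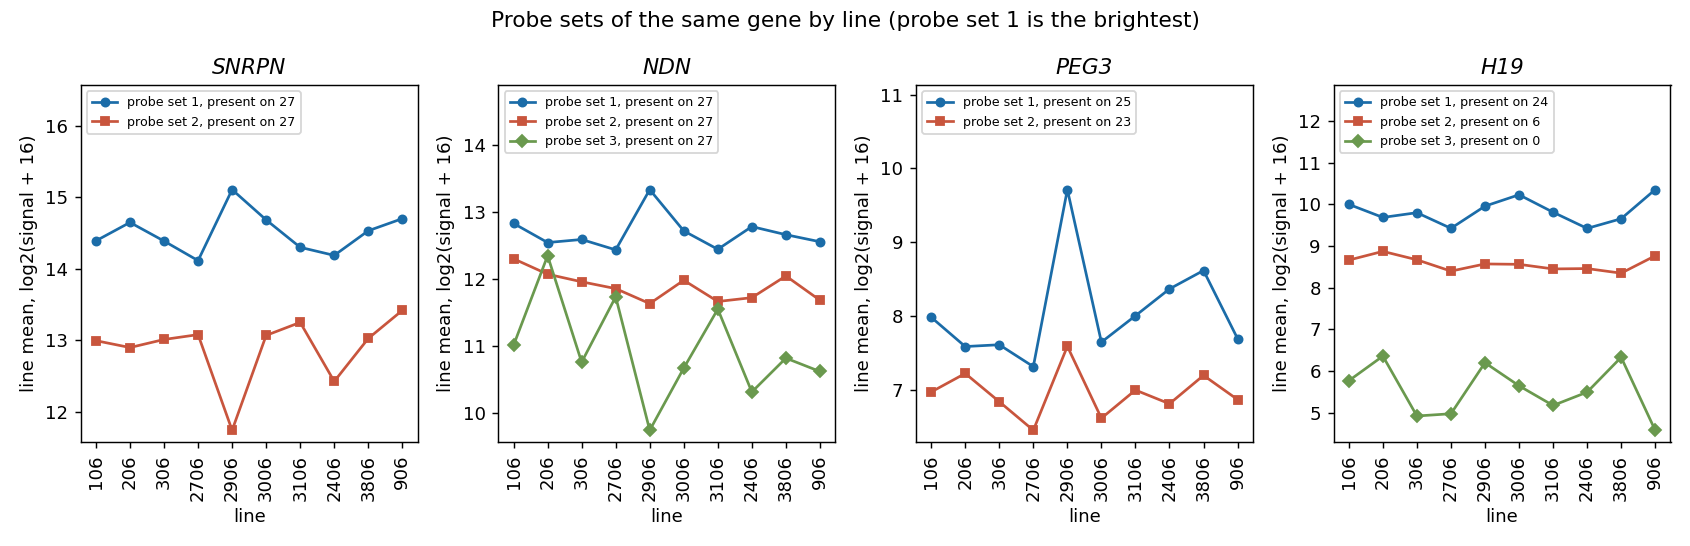
Line means, as log2(signal + 16), of each probe set of SNRPN, NDN, PEG3 and H19 across the 10 lines, with each gene on its own axis and its brightest probe set in blue. In line 2906 the brightest SNRPN and NDN probe sets peak (15.11 and 13.33) while their other probe sets are at their lowest, and both PEG3 probe sets peak (9.71 and 7.59).

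In the MEST cluster, MEST ranged from 11.78 in line 2906 to 12.79 ± 0.28 (n = 3) in line 306 and was not called (adjusted p = 0.241). Its neighbour COPG2 was called (adjusted p = 0.000227), with 8.37 ± 0.38 (n = 3) in line 3106, 6.01 ± 1.07 (n = 3) in line 2406 and 4.66 in line 2906. The 3 lowest arrays, at 4.66 to 5.51, were that of line 2906 and arrays d and e of line 2406. All 3 had a GAPDH ratio over 3, and array a of line 2406, with a ratio of 1.52, was at 7.24. The other arrays of high ratio, a and c of line 3006 (6.15 and 3.41) and c of line 106 (4.61), were at 6.85 or above. With the 6 arrays of high ratio left out COPG2 was not called (adjusted p = 0.101), and it had a present call on only 1 array. CPA4, a carboxypeptidase gene, was absent on all arrays.

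SGCE was highest in line 106 at 9.27 ± 0.13 (n = 3) and in line 906 at 9.24 ± 0.09 (n = 3). It was lowest in line 2906 at 8.27, line 3006 at 8.33 ± 0.07 (n = 3) and line 2406 at 8.43 ± 0.30 (n = 3), with an adjusted p of 0.0412. The arrays of line 3006, at 8.24, 8.35 and 8.39, lay below all arrays of lines 106 and 906, which started at 9.14. The GAPDH ratio was 6.15, 2.98 and 3.41 on arrays a, b and c of line 3006, and 1.62 to 4.61 on those of lines 106 and 906. With the 6 arrays of high ratio left out the adjusted p was 0.407. PPP1R9A, the actin-binding protein neurabin from the same cluster, was highest in line 2906 (8.44) and lowest in line 906 at 7.48 ± 0.11 (n = 3), with an adjusted p of 0.365.

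BLCAP was lowest in line 2906 at 7.78, followed by line 2406 at 8.15 ± 0.17 (n = 3) and line 3006 at 8.19 ± 0.11 (n = 3). It was highest in line 306 at 8.89 ± 0.30 (n = 3), line 906 at 8.83 ± 0.08 (n = 3) and line 106 at 8.80 ± 0.12 (n = 3). The adjusted p was 0.00776, and it was 0.288 with the 6 arrays of high ratio left out, where the range fell from 1.11 to 0.59. Lines 2906, 2406 and 3006 were the lowest for BLCAP and SGCE, and those 6 arrays all come from these lines except array c of line 106. Lines 2906 and 2406 were also the lowest for COPG2. The part of RNA length in the calls of BLCAP, SGCE and COPG2 was not tested beyond leaving those 6 arrays out.

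GRB10 did not differ among lines by its brightest probe set, which ranged from 10.78 in line 3806 to 11.61 in line 3106 (adjusted p = 0.453). Arrays c of line 106 and b of line 3106, at 12.40 and 12.09, stood above the other 25, of which the highest was at 11.63. The other 2 GRB10 probe sets were both called, with adjusted p of 0.0286 and 0.0287. One was lowest in line 3806 (10.54) and highest in line 206 (11.52), and the other was lowest in line 2906 (7.51) and highest in line 3106 (9.34). INPP5F, a phosphoinositide phosphatase, ranged from 7.24 in line 2406 to 7.86 in line 906 (adjusted p = 0.401). WT1, a zinc finger transcription factor, and L3MBTL1, a chromatin reader, were absent on all arrays, with line means of 6.17 to 7.41 and 4.47 to 4.88.

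Line 2906 was the highest line for 9 of the 18 tested genes present on at least 14 arrays (50%) and the lowest for 3 (16.7%). Over all 8771 genes tested with that many present calls it was highest for 27.4% and lowest for 22.6%. These shares are of the brightest probe sets. Some other probe sets of SNRPN, NDN and UBE3A, present on all arrays, were lowest in line 2906. The other probe sets of PEG3, OSBPL5 and IGF2R were highest there. The mean of line 2906 rests on 1 array, which gives it more spread than means of 2 or 3. That array had the GAPDH ratio of 13.3. The line also had the highest summed signal of trophoblast markers. GATA3, TFAP2A, TFAP2C and KRT7 were highest there, while HAND1, CDX2, GCM1 and ELF5 were highest in other lines. Its summed signal of fibroblast markers was the lowest, with COL1A1, COL3A1, VIM and DCN lowest there. COL1A2, THY1, LUM and FN1 were lowest in other lines. The summed signal of the 2 neural ectoderm markers on the array, PAX6 and NEUROG2, was 664.3 in line 2906 against 45.9 to 219.3 in the others, with PAX6 at 9.38 and NEUROG2 at 5.34 or below in every line mean. The part of these markers in the line's levels of imprinted genes was not tested.

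The quadruplet and triplet families share sire M106 and differ in the dam, so their comparison asks whether imprinted genes differ between the sibling groups. With the line as the replicate, limma called 0 of 24 imprinted genes, and 0.0708% of all genes tested. At an unadjusted p under 0.05 there were 3 (CPA4, OSBPL5 and BLCAP), and the lowest adjusted p was 0.243. Of the 24, 15 were higher and 9 lower in the quadruplets, with a median difference of 0.08 against -0.01 over all genes tested. The low number of lines limits what could be called.

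OSBPL5 was 8.73 ± 0.24 (SD, n = 4) in the quadruplets and 8.14 ± 0.29 (n = 3) in the triplets, a difference of 0.59 ± 0.20 (SE, adjusted p = 0.42). The groups overlapped, with triplet line 306 at 8.47 and quadruplet line 2706 at 8.42. BLCAP was 8.23 ± 0.36 (n = 4) against 8.76 ± 0.16 (n = 3), a difference of -0.53 ± 0.22 (SE, adjusted p = 0.495), and its groups overlapped through line 3106 at 8.65. PHLDA2 was 10.58 ± 1.40 (n = 4) against 9.15 ± 0.14 (n = 3), a difference of 1.43 ± 0.64 (SE, adjusted p = 0.529). The triplet lines, at 9.02 to 9.31, all lay below the quadruplet lines, at 9.39 to 12.36, but quadruplet lines 2906 and 3106 stood only just above them, and without line 3006 the difference was 0.84. CPA4 also did not overlap between the families, at 5.75 to 6.32 in the quadruplets and 6.76 to 7.04 in the triplets, but was absent on all arrays. IGF2R also did not overlap by its brightest probe set, at 11.00 to 11.31 in the quadruplets and 11.39 to 11.50 in the triplets, a difference of -0.32 ± 0.15 (SE, adjusted p = 0.551). Its second probe set, present on all arrays, did overlap, at 8.88 to 10.06 in the quadruplets and 9.35 to 9.60 in the triplets. The difference there was -0.07. By their brightest probe sets, PHLDA2, CPA4 and IGF2R are 12.5% of the 24 imprinted genes tested, and 12.2% of all 11306 genes tested did not overlap between the families.

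Between the 5 male and 5 female lines, limma called 0 of 24 imprinted genes, and 0.0177% of all genes tested. None of the 24 (0) had an unadjusted p under 0.05, and 12 were higher and 12 lower in males, with a median difference of -0.03 against -0.01 over all genes tested. The 3 genes of lowest p among those present on at least 14 arrays were BLCAP, MEST and PEG3. BLCAP was 8.69 ± 0.24 (SD, n = 5) in males and 8.29 ± 0.39 (n = 5) in females, and MEST 12.48 ± 0.22 and 12.16 ± 0.27. PEG3 was 7.72 ± 0.29 in males and 8.38 ± 0.87 in females, a difference of -0.66 ± 0.35 (SE, adjusted p = 0.774). All 3 genes overlapped between the sexes, and the PEG3 difference was -0.33 without line 2906. These values are of the brightest probe sets. For SNRPN the brightest probe set was 0.25 lower in males. Its second, present on all arrays, was 0.52 higher (unadjusted p = 0.049, adjusted p = 0.774, limma).

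Only line 906 has sire M36, so the comparison by sire is one of line 906 with 9 lines of sire M106 and cannot tell the sire from the dam or the line. In it the lone line was assumed to vary like the others. Limma called 0 of 24 imprinted genes, and 0.0265% of all genes tested, with 1 at an unadjusted p under 0.05 and a lowest adjusted p of 0.792. Of the 24, 14 were higher and 10 lower in line 906, with a median difference of 0.07 against 0.03 over all genes tested. The 1 gene was DIRAS3, at 7.99 in line 906 and 7.02 ± 0.30 (SD, n = 9) in the others, a difference of 0.97 ± 0.31 (SE, adjusted p = 0.792). Line 906 lay above all 9, whose highest was line 306 at 7.50. H19 was 0.58 ± 0.28 (SE) higher in line 906, and 0.19 higher without the 4 arrays of highest median signal. PPP1R9A was 0.40 lower in line 906 (difference -0.40 ± 0.27, SE) than the mean of the others. These values are of the brightest probe sets. The second OSBPL5 probe set, present on 2 arrays, was 0.96 lower in line 906, and the brightest 0.14 lower.

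**Figure D4:**
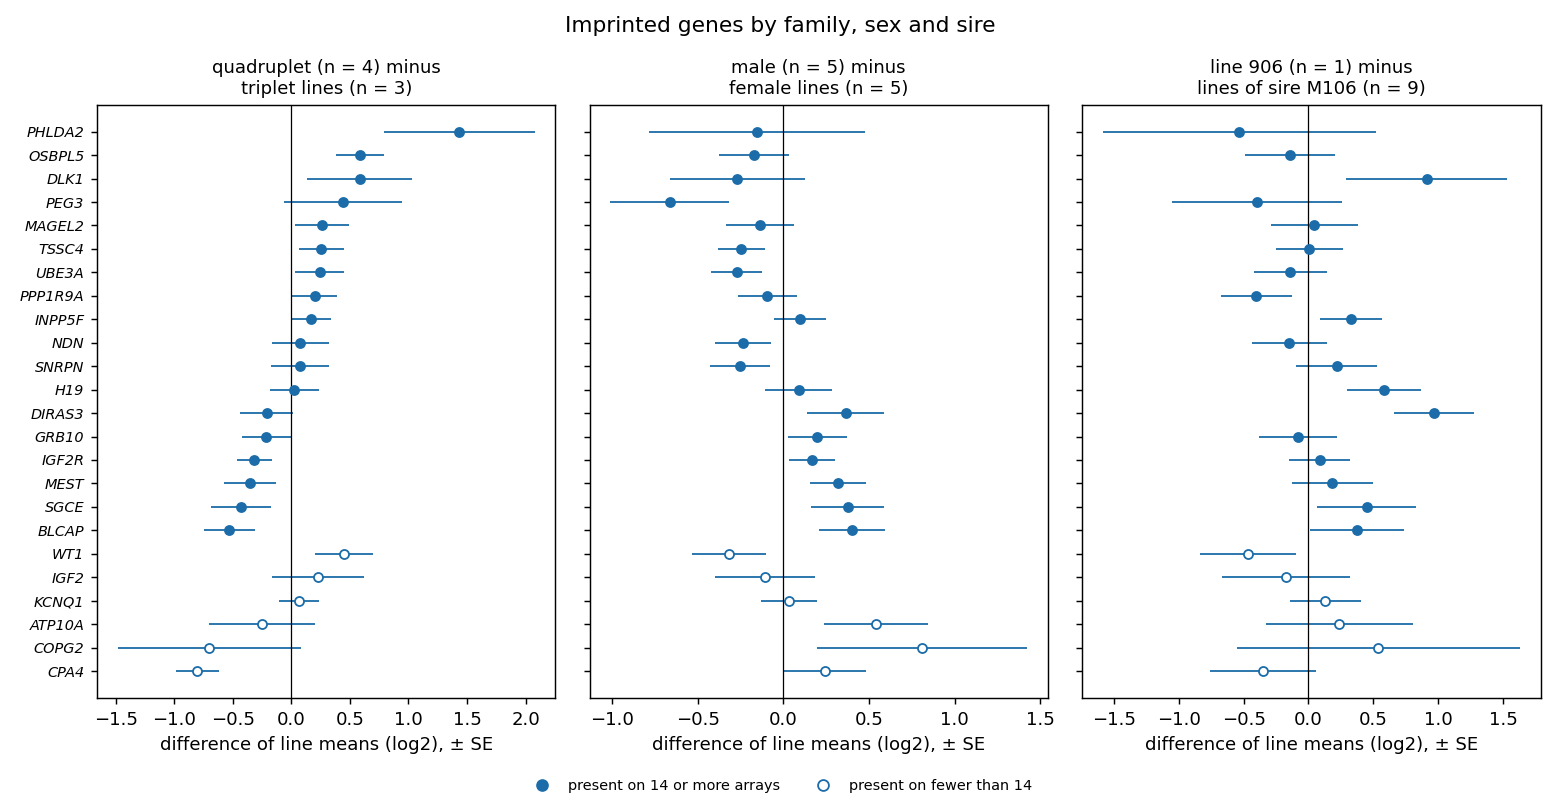
Difference of line means (log2) with its SE for the 24 tested imprinted genes, for quadruplet minus triplet lines, male minus female lines, and line 906 minus the lines of sire M106. Filled points are genes present on at least 14 arrays. PHLDA2 lies farthest to the right by family (1.43) and DIRAS3 by sire (0.97), and limma called 0 genes in each comparison.

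Imprinted genes of one cluster can share a control region, so 7 pairs of one cluster, present on at least 14 arrays, were compared across the 10 line means. Not all are close neighbours. In the RefSeq annotation, 117 genes lie between SNRPN and UBE3A, 19 between SNRPN and NDN, and 15 between TSSC4 and OSBPL5. Between the genes of the other pairs lie 0 to 9. Lines of a family are siblings, so the 10 points are not fully independent. None of the 7 (0) passed an adjusted permutation p of 0.05 for Pearson's r. TSSC4 and OSBPL5 had the highest r, 0.76 (permutation p = 0.0117, adjusted p = 0.0822), with Spearman's rho 0.58 (permutation p = 0.0872, adjusted p = 0.539). Without lines 2906 and 3006, the farthest from the median of TSSC4, r was 0.41. SNRPN and UBE3A had an r of 0.69 (permutation p = 0.0308, adjusted p = 0.0992) and a rho of 0.30 (permutation p = 0.408, adjusted p = 0.576), and r was 0.34 without lines 2906 and 2706. SNRPN and NDN had an r of 0.67 (permutation p = 0.0425, adjusted p = 0.0992) and a rho of 0.42 (permutation p = 0.231, adjusted p = 0.539). Without lines 2906 and 2706 that r was -0.21, so it rests on those lines.

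The other pairs were weaker. NDN and MAGEL2, which are adjacent in the RefSeq annotation of the rhesus assembly MMU8v2.0, had an r of 0.46 (permutation p = 0.175, adjusted p = 0.268) and a rho of -0.13 (permutation p = 0.735, adjusted p = 0.735), and r was -0.39 without lines 2906 and 106. SGCE and PPP1R9A had an r of -0.45 (permutation p = 0.192, adjusted p = 0.268) and a rho of -0.27 (permutation p = 0.448, adjusted p = 0.576), and r was 0.21 without lines 2906 and 3006. PHLDA2 had an r of 0.37 with TSSC4 (permutation p = 0.304, adjusted p = 0.312) and of 0.36 with OSBPL5 (permutation p = 0.312, adjusted p = 0.312), with rho of 0.25 (permutation p = 0.494, adjusted p = 0.576) and 0.44 (permutation p = 0.205, adjusted p = 0.539). Without lines 3006 and 2706 these r were 0.20 and 0.11.

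Genes that set or keep imprints were mostly detected everywhere. Of 26 such genes, 20 were on the array, 16 of them present on all arrays, among them DNMT3A and DNMT3B, which add DNA methylation, and TRIM28, a corepressor that protects imprints. DNMT3L and CTCFL, both known from germ cells, were present on 0 arrays, and DNMT1, which maintains methylation, on 16. Of 18 tested, 1 was called among lines, ZFP42, which was lowest in line 2906 at 8.25 and highest in line 306 at 9.89, and 0 in each of the other comparisons. Their median range was 0.65, against 1.01 for the imprinted genes and 0.86 over all genes tested, of which 17.5% were called among lines. Of 34 further genes reported as imprinted, 20 were on the array and 13 were tested, with 3 called among lines and 0 between families, sexes or sires. The median range of these 13 was 0.95, and the share called among lines over all genes tested is the same 17.5%. The 3 were TFPI2, a protease inhibitor of the SGCE cluster (7.98 in line 2906 to 10.86 in line 106), RB1, the retinoblastoma cell cycle inhibitor (10.22 in line 3806 to 12.05 in line 2906), and PON2, a lactonase gene near SGCE (10.26 in line 3806 to 12.81 in line 3006).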

How the data were processed

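The authors deposited 1 intensity for each probe set of each array, made with GCOS per the submitters' processing notes (version and settings not given in the sources used here). The trimmed mean intensity (2% dropped at either end) was 500 on every array, so the authors had already scaled them. A second deposited table repeats the intensities and holds the authors' present, marginal and absent calls. It filled 1 blank cell and differed in 0. Parents and sex came from the labels and a deposited pedigree table.

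Of 52707 probe sets that are no control, 24956 name 1 gene in GEO's platform annotation, 361 name several and 27390 none. Symbols were updated to RefSeq (assembly MMU8v2.0), where 24616 matched. No coordinates or sequences are given.

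Values were analysed as log2(signal + 16), which makes changes of dim genes look smaller. Testing needed a probe set to exceed the array's median signal on at least 3 arrays (32856 probe sets did), which left out MKRN3, PLAGL1 and L3MBTL1. Differences among lines were tested with limma 3.58.1 in R 4.3.3 (F test, 27 arrays). Families, sexes and sires were tested with limma on line means. All p-values were adjusted by Benjamini-Hochberg over all probe sets tested, with a threshold of 0.05. Pairs of one cluster, 7 of 22 listed, were tested with 100000 permutations (2-sided) and adjusted over the 7. The number of arrays limits the precision. The scripts were tested on simulated data.

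Named with values are called members, the 12 widest ranges among members present on at least 14 arrays, the pairs, and members present on 0 arrays. Other members with values, ZFP42 and the called genes of the further list were named after their values were seen. The members and lists were chosen with earlier results of these data known. Alternatives were pseudocounts of 1 and 64, other filters, quantile normalization, median centring, the mean of a gene's probe sets, sex or dam as a covariate, the array letter as a block, and leaving out lines, arrays, the 6 arrays of high GAPDH ratio or the 4 of highest median signal.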

Additional observations from a re-analysis of the deposited data

Results flagged for a closer look

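In 72 checks of 18 genes in 4 groups of lines (all 10, the quadruplets, males and females), 4 had 1 line far from the others by Dixon's gap test, where chance gives about 1 in 20. Among 72 checks, 4 is close to that rate. The groups share lines, so the checks are not independent, and line 2906 rests on 1 array. PHLDA2 in line 2706 was at 11.02, with the other male lines at 9.02 to 9.55. IGF2R in line 206 was at 11.50, with the other female lines at 11.00 to 11.14. The second IGF2R probe set was at 9.36 in line 206, with the other female lines at 8.88 to 10.06. NDN in line 2906 was at 13.33, with the other 9 lines at 12.43 to 12.83. PPP1R9A in line 2906 was at 8.44, with the others at 7.48 to 7.99.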

How the results depend on the processing

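The count of 6 genes called among lines was within 1.5 times under 46 of 48 alternatives. With the 6 arrays of high GAPDH ratio left out it was 2, and it ran from 3 (without line 3006) to 8 (without array c of line 206) when single lines or arrays were left out. Calls over all probe sets tested were 16.6% in the reported analysis and 7.96%, 10.5% and 16.2% in these 3 settings. PEG3 was called under all 47 alternatives that tested it, PHLDA2 under 47 of 48 (not without line 3006), and COPG2 under 45 of 46. BLCAP lost its call under 2 of 48, NDN under 23 and SGCE under 28, and the cause was not tested. The counts by family, sex and sire were 0 under all 21, 21 and 19 alternatives. The differences of PHLDA2, OSBPL5, BLCAP, IGF2R and CPA4 by family, BLCAP, MEST and PEG3 by sex, and DIRAS3, H19 and PPP1R9A by sire kept their sign under the alternatives that tested them, while leaving out line 906 could not be run by sire. Arrays of one letter in different lines had a median correlation of deviations of 0.06 (-0.24 to 0.53, 77 pairs). For arrays of different letters and lines it was -0.03 (-0.53 to 0.39, 223 pairs). The labels do not say what the letters mark. With the letter as a replicate block, 6 genes were called among lines (BLCAP, COPG2, DIRAS3, DLK1, PEG3 and PHLDA2). NDN and SGCE were then not called, and calls over all probe sets tested were 12.0%. The r of NDN and MAGEL2 turned to -0.52 without line 2906. With median centring 1 pair passed, TSSC4 and OSBPL5 (r 0.81, adjusted p = 0.0401). The median share of variance between lines was 27.03% with no filter, 26.8% with median centring and 42.9% with the 4 arrays of highest median signal left out.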
